A study of Caenorhabditis elegans with 10 samples.

Results

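The change that each mRNA underwent over a whole cooling treatment, from 20°C to day 5 at 4°C, was measured in total RNA of the nematode *Caenorhabditis elegans*. The values are FPKM, the reads on a transcript scaled to its exon length and to the total of its library. For every gene the transcript of highest mean was used, and genes were included when it reached an FPKM of at least 1 in any condition. This left 10509 of 19985 protein-coding genes. The total change is the log2 ratio of FPKM + 0.1 at day 5 to FPKM + 0.1 at 20°C. It is the sum of the changes in 4 steps: cooling to 10°C, the step from there to 4°C day 1, the step to day 3, and the step to day 5. A gene is called raised or lowered when its total change was at least 2-fold. It is called gained when it was raised from an FPKM below 1 to at least 1, lost when it was lowered from at least 1 to below 1, and kept when its total change was smaller than 0.32 on the log2 scale in either direction. Where 5 FPKM values stand in a row, they belong to 20°C, 10°C, and days 1, 3, and 5 at 4°C, in that order.

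All animals were of genotype N2, the wild-type strain, and the labels name no transgene or drug. They were hatched as a synchronized L1 population and fed the bacterium OP50 at 20°C until they were 1-day-old adults. Whole animals were then either collected at 20°C, collected after a short stay at 10°C, or passed through 10°C into 4°C and collected after 1, 3, or 5 days. Each condition had 2 labeled replicates, but the deposited values give 1 column per condition, taken here as pooled, so there is no replicate error and no test between conditions. The treatment labels give the stay at 10°C as 3 hr where the study's design gives 2 hr. The treatment label of the last group reads 3 days at 4°C where its title reads 5, and the group is called day 5 here. Because whole adults were used, fewer cells of a tissue and less RNA per cell cannot be told apart in any value below.

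The columns held between 70741449 reads on transcripts (day 5) and 85103831 (4°C day 1), recovered from the FPKM values and exon lengths. The 95% counting limits printed in brackets come from these reads and cover counting error only. Defining markers of the germ line, oocytes, neurons, body wall muscle, and intestine had reads in every condition. The summed FPKM of 5 neuronal markers was 67.0 at 20°C and 94.0 at day 5, mainly through *snb-1* (53.6 and 76.8). *rab-3*, *unc-13*, and *unc-17* were slightly lower at day 5. The sum was 378 and 352 for 4 germ line markers. It was 726 and 490 for 3 oocyte markers, 243 and 158 for 4 body wall muscle markers, and 31.5 and 19.2 for 3 pharyngeal markers. Of the pharyngeal markers, *tnt-4* went from 14.4 to 2.90, while *myo-1* (9.93 and 10.0) and *myo-2* (7.13 and 6.34) ended within 2-fold. The sum for the 4 intestinal markers found was 96.3 and 56.5, and 3 of these (*elt-2*, *ges-1*, and *vha-6*) were lowered.

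When *C. elegans* is cooled far below its growth range, adults stop feeding and laying eggs and can persist for days in a dormant state. The amount of an mRNA is set by its synthesis and its decay. In an adult hermaphrodite, the intestine is the main site of fat metabolism, detoxification, and yolk production, the epidermis secretes the collagens of the cuticle, and the germ line contributes much of the RNA. The lists below follow these roles.

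Over the whole treatment, most mRNAs ended within 2-fold of the level at which they began (8190 of 10509), and more were lowered than raised. Of the 10509 genes, 568 were raised (5.4%) and 1751 lowered (16.7%), while 4536 were kept (43.2%). The gained mRNAs numbered 257 (2.45%) and the lost mRNAs 978 (9.31%). The median total change was -0.11 over all genes, so the typical mRNA ended slightly below its starting share of reads, and the changes below are to be read against that shift. With every ratio centered on that median, 662 genes were raised and 1594 lowered. Falls made up 75.5% of the 2-fold calls, and 57.1% when the median of genes of like mean FPKM was subtracted (904 raised and 1203 lowered).

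Changes of at least 4-fold comprised 235 rises and 746 falls, while those of at least 16-fold were close to equal in number, with 62 rises and 65 falls. Counting limits lay beyond 0 for 565 of the raised and 1744 of the lowered genes. At the low end, 43 raised genes had at most 3 reads at 20°C, the floor used here, and 27 lowered genes had at most 3 at day 5. The raised genes held 4.43% of the reads on the chosen transcripts at 20°C and 9.97% at day 5. The lowered genes held 14.1% and 4.19%, and the genes within 2-fold 81.4% and 85.8%.

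Rises and falls were spread differently over the treatment. Each gene was assigned to the step that held the largest part of its total change. The move into 4°C, read at day 1, was the main step for 398 of the 568 raised genes (70.1%), whereas it was the main step for 746 of the 1751 lowered genes (42.6%). The later steps took a larger share of the falls, with 515 lowered genes (29.4%) changing most up to day 3 and 392 (22.4%) between day 3 and day 5. Only 23 raised genes changed most in the last step. The first cooling step was the main one for 34 raised and 98 lowered genes.

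**Figure D1:**
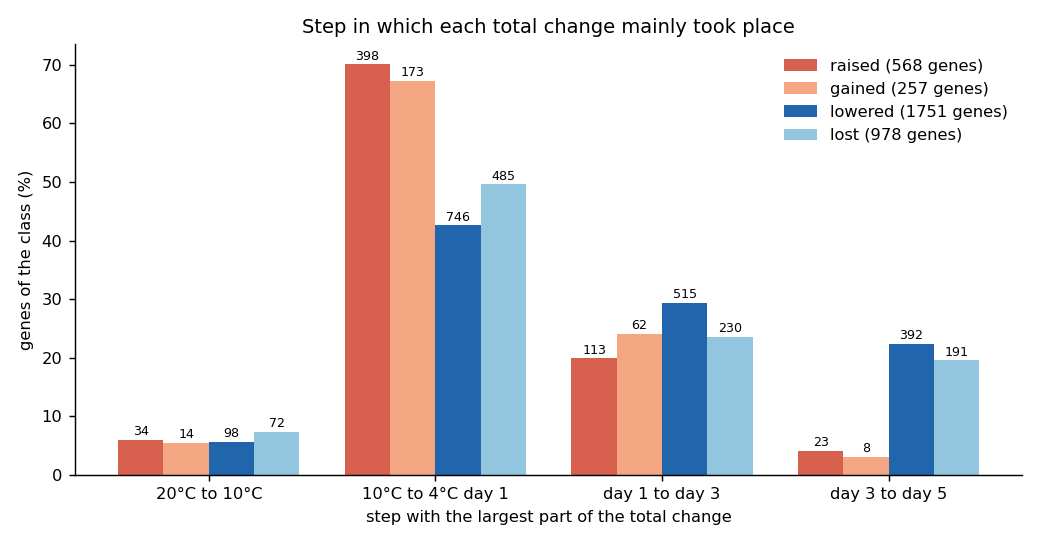
Genes by the step that held the largest part of their total change, as a percentage of the genes of each class, with the number of genes above each bar. From 10°C to 4°C day 1, the bars stand at 70.1% of raised and 42.6% of lowered genes, and in the last step at 392 lowered but 23 raised genes.

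The count of 2-fold changes within each step shifted from rises to falls. From 20°C to 10°C, 133 genes (1.27%) rose and 98 (0.933%) fell by at least 2-fold. The step to 4°C day 1 was balanced, with 577 rises (5.49%) and 570 falls (5.42%). From day 1 to day 3 there were 165 rises (1.57%) and 489 falls (4.65%). Between day 3 and day 5, rises nearly ceased, with 16 (0.152%) against 523 falls (4.98%).

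Most lowered mRNAs were lowest at day 5, while most raised mRNAs were highest before it. Both classes were chosen by their day 5 value, so these counts are a description. Of the lowered genes, 1418 were at their lowest at day 5 (81.0%, against 31.8% of all genes), and 707 fell in every step. Of the raised genes, 183 were at their highest at day 5 (32.2%, against 27.3% of all genes). The highest level was at day 3 in 262 and at day 1 in 121, and 75 raised genes rose in every step. An earlier level more than 2-fold above day 5 was found for 119 raised genes. The median FPKM of the raised genes was 0.848, 1.26, 4.27, 5.62, and 4.49 over the 5 conditions. That of the lowered genes was 3.34, 2.93, 1.67, 1.10, and 0.715 in the same order.

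Gained mRNAs crossed an FPKM of 1 for good at 10°C in 51 cases, and on the 3 days in 131, 52, and 23. Lost mRNAs dropped below 1 for good at 10°C in 176 cases, and on the 3 days in 354, 232, and 216. The losses were therefore spread more evenly over the days at 4°C than the gains.

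The largest gain was that of F19B10.13, a gene with no assigned name on chromosome II (3662274 to 3662618 of WBcel235, forward strand, 1 exon of 345 bases). Its FPKM was 0.62, 1.84, 199, 181, and 270. The rise was made mainly by day 1 and the level was held, for a total log2 change of 8.55 [7.95 to 9.12], or 376-fold. Next was *lips-11*, a gene of the lipase-related class on chromosome II (1108841 to 1111001, reverse strand, 5 exons), which went from 0.115 through 0.723, 113, and 85.9 to 45 (7.71 [7.11 to 8.16]). Its level at day 5 was thus below that at day 1 but still far above 20°C. The nearby *lips-13* followed the same course, with FPKM values of 0.0423, 0.241, 32.5, 23.6, and 12 (6.41 [5.74 to 6.74], from 3 reads at 20°C), and *lips-12* between them ended at 3.35 from 0.184 (3.60).

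K04A8.21 on chromosome V (6556653 to 6557135) also passed an FPKM of 1 by day 1, but peaked at day 3, later than *lips-11* and *lips-13*. Its FPKM was 0.0958 and 0.152 before 4°C, then 8.32, 62.3, and 35.4 (7.50 [6.54 to 8.07]). It had 3 reads at 20°C, so the size of its ratio is loosely set. The nuclear metal-response genes *numr-1* and *numr-2* had identical reads in every column, so their copies are not told apart. Their FPKM was 0.178, 0.367, 36.8, 58.4, and 46.4 (7.38).

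The F-box gene *fbxa-163*, from a family of putative substrate adaptors of ubiquitin ligases, made nearly all of its gain in a single step. It stood at 0.061 and 0.0676 before 4°C and at 21.3, 19.1, and 21.5 on the 3 days (7.07 [6.53 to 7.41]), with 7.0 of that change in the step to day 1. C25F9.11 on chromosome V rose in every step, from 0.348 through 1.71, 30.04, and 34.6 to 57.0 (6.99). C49G7.12 (5.99), B0507.8 (6.18), and F40G12.5 (6.19), all on chromosome V, also rose in every step. Of these, F40G12.5 was the slowest, with 0.418 at day 1, 4.45 at day 3, and 10.7 at the end. H02F09.3 on the X chromosome (6.16) belonged mainly to day 3, with 1.53 at day 1, 22.3 at day 3, and 12 at the end.

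**Figure D2:**
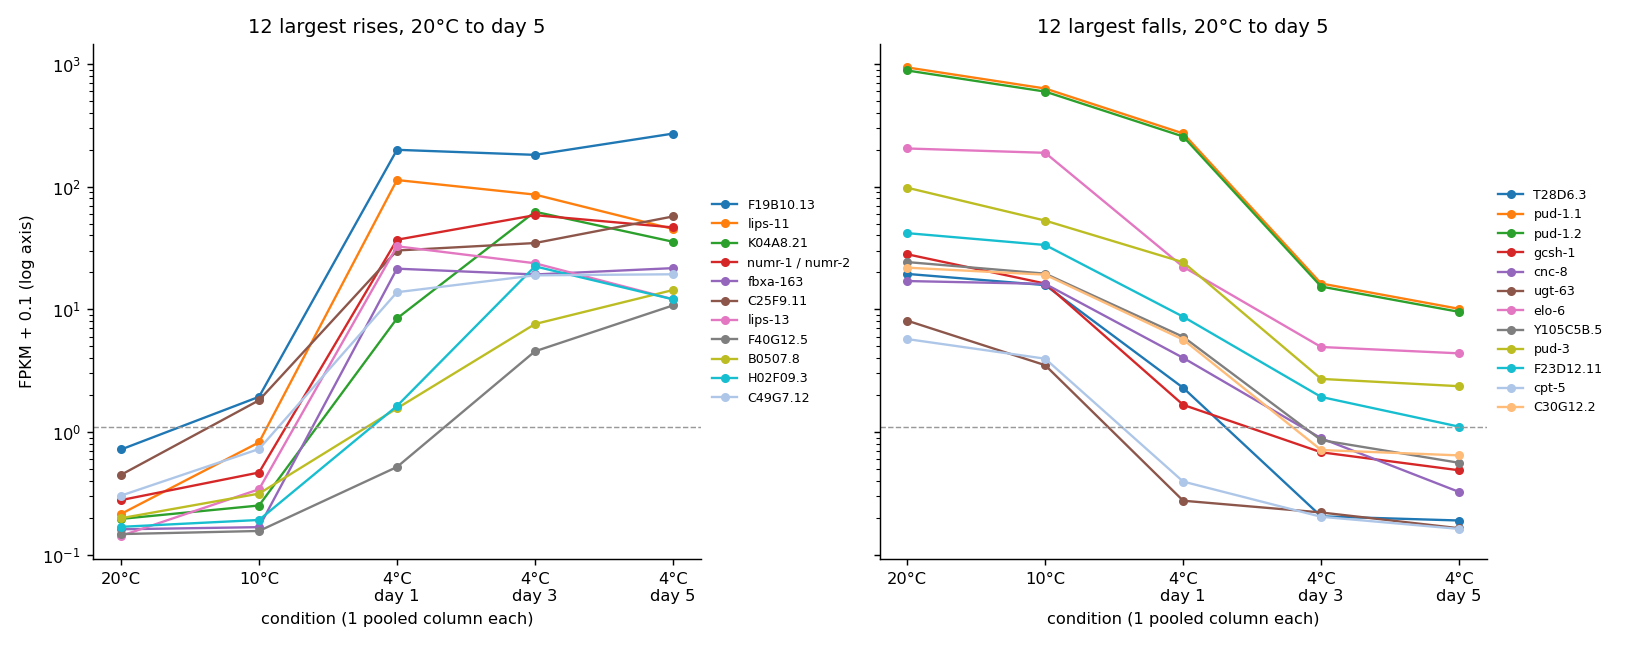
FPKM + 0.1 on a log axis in the 5 conditions, 1 pooled column each, for the 12 genes with the largest rises (left; *numr-1* and *numr-2* share 1 line) and the 12 with the largest falls (right). The dashed line marks an FPKM of 1, which gained genes crossed upward and lost genes downward. Most of the rises lie between 10°C and day 1, whereas the falls run on to day 3 and day 5.

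The largest loss was that of T28D6.3 on chromosome III (11366767 to 11368435, forward strand, 3 exons). Its FPKM was 19.3, 15.6, 2.19, 0.105, and 0.0898, with 3 reads left at day 5 (-6.68 [-7.23 to -5.73]). Next were the *pud-1* copies of the pud genes, a small family named for proteins that are up-regulated in *daf-2* insulin receptor mutants. *pud-1.1* fell from an FPKM of 936 through 630, 271, and 16 to 9.98 (-6.54 [-6.69 to -6.38]), and *pud-1.2* shared its reads. All 6 pud genes lie in a run on chromosome V from 2322038 to 2330930, and all 6 were lowered, with log2 totals from -6.54 to -2.71. For *pud-2.1* and *pud-2.2* the FPKM was 594 at 20°C and 33.7 at day 5 (-4.13), for *pud-3* it was 97.8 and 2.26 (-5.37), and for *pud-4* it was 49.6 and 7.49 (-2.71).

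*elo-6*, an elongase of the monomethyl branched-chain fatty acids, was the most lowered lipid gene. Its FPKM was 204, 188, 22.1, 4.83, and 4.27 (-5.55 [-5.71 to -5.38]). The gene of a glycine cleavage system H protein, *gcsh-1*, went from 28 through 16, 1.56, and 0.583 to 0.387 (-5.85). *cnc-8*, from a class of caenacin antimicrobial peptides, went from 16.9 through 16, 3.92, and 0.788 to 0.224 (-5.71). Both fell in every step.

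*ugt-63*, a UDP-glucuronosyltransferase gene, was at 7.98 at 20°C, 3.40 at 10°C, and 0.175 already at day 1 (-5.62). *cpt-5*, of the carnitine palmitoyltransferase class, followed a like course, from 5.62 through 3.86 and 0.294 to 0.0621 at day 5 (-5.14). Y105C5B.5 (-5.44), F23D12.11 (-5.24), and C30G12.2 (-5.08) had their largest fall between day 1 and day 3. T28D6.3, *gcsh-1*, and the *pud-1* copies also had the largest falls among genes that went down in every step.

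The kept mRNAs had higher levels than the others. Their median of the mean FPKM was 20.0, against 11.4 over all genes, 3.64 over raised, and 2.02 over lowered genes. At every condition, 3158 of the 4536 kept genes stayed within 0.32 of 20°C on the log2 scale, which is 30.1% of all genes, and 7659 genes (72.9%) stayed within 2-fold throughout. Of the 10 kept genes with the highest mean FPKM, 4 are encoded by mitochondrial DNA, including the cytochrome oxidase subunits *ctc-3* (2328 at 20°C and 2361 at day 5) and *ctc-1* (1709 and 2102). The others of these 4 were *ctb-1* for cytochrome b (1143 and 1137) and *atp-6* of the ATP synthase (972 and 1090).

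The nuclear members of that group covered several functions. They were the cyclophilin *cyn-7* (901 at 20°C and 1013 at day 5), the fatty acid and retinol binding protein *far-2* (791 and 928), the 14-3-3 protein *par-5* (704 and 871), and the nucleoside diphosphate kinase *ndk-1* (523 and 639). Also among them were the collagens *col-119* (1252 and 1328) and *col-140* (617 and 497), although most collagens were lowered. None of these 10 moved by 2-fold at any condition.

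In the first step, from 20°C to 10°C, few genes made most of their change. *tsp-2*, of the tetraspanin class of membrane proteins, had a rise of 2.68 in this step and 2.62 in the next, from an FPKM of 0.229 through 2.00, 12.9, and 15.8 to 7.37. K11H12.4 went from 1.98 to 11.9 at 10°C and ended at 13.2, and the cathepsin B-like protease gene *cpr-3* from 2.84 to 15.5 and ended at 11.8. T24C4.4 rose from 1.08 to 5.96 at 10°C and ended at 8.39, but its exons lie wholly within those of another gene. Of the early falls, *zip-12*, a bZIP transcription factor gene, went from 8.41 to 3.29 at 10°C and ended at 2.39. The arrestin-domain gene *arrd-1* went from 5.89 to 2.46 and ended at 1.23, and C17E4.2 from 5.48 to 2.43 and ended at 1.43. Y75B8A.63 fell by 2.39 on the log2 scale in this step, in a transcript of 39 bases that lies wholly within the exons of another gene and had 15 reads at day 5.

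In the step to 4°C day 1, among genes with an FPKM of at least 5 and 100 reads at the higher end that made 50% or more of their change in it, the largest rises were those of *lips-11* (7.10), *fbxa-163* (7.0), F19B10.13 (6.69), and *lips-13* (6.58). Under the same limits, the 4 largest falls were as follows. *hacd-1*, a hydroxyacyl-CoA dehydrogenase gene, was at 25.3 at 20°C and 43.4 at 10°C, and at 1.06, 1.2, and 0.816 on the 3 days. The step alone was -5.23, and the total -4.79. The palmitoyl-CoA desaturase gene *fat-5* went from 9.88 and 11.3 to 0.617, 0.394, and 0.32 (step -4.0, total -4.57). *ugt-44* rose to 31 at 10°C from 8.42, fell to 2.12 at day 1, and ended at 0.831, so its step of -3.81 exceeded its total of -3.19. F22F7.8 went from 9.98 and 9.26 to 0.571 and ended at 0.356.

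From day 1 to day 3, the largest rises under these limits were those of *nspe-7*, the *hsp-16.48* and *hsp-16.49* copies, and H02F09.3 (3.78, with its values given above). *nspe-7* was at 0.139 at day 1 and 6.24 at day 3 (4.73 in the step). *hsp-16.48* and *hsp-16.49*, which shared their reads, went from 2.18 to 39.3 (4.12), after a fall from 1.72 to 0.581 at 10°C, and ended at 18.7. The falls of this step included several mRNAs with high starting levels. The collagen *col-101* was at 611, 582.4, and 442 up to day 1, then at 33.5, and ended at 22.2 (step -3.72). *acp-6*, of the acid phosphatase class, was at 110, 105, and 79.2, then at 6.15, and ended at 3.15 (step -3.66). The *pud-1* copies fell by 4.06 in this step.

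From day 3 to day 5, only 11 raised genes made 50% or more of their total change. F23A7.4 and F23A7.8, neighboring genes of 1 short exon on the X chromosome, went from 932 to 1917 and from 1218 to 2493 (total 1.415 and 1.48). *scl-5*, whose class encodes SCP-like extracellular proteins, went from 4.48 to 8.1 (1.62), and the ribosomal protein gene *rpl-38* from 643 to 1045 (1.02). Of the lowered genes, 270 made 50% or more of their change in this step. K10D3.6 went from 2.7 to 0.346, F59C6.16 from 13.6 to 2.56, and the collagen *col-166* from 12.4 to 2.64. *gst-13*, a glutathione S-transferase gene, first rose from 11.2 to 34.3 at day 3 and then fell to 5.53, so it was raised at day 3 and lowered at day 5 (-1.0, just inside the threshold).

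A further 531 genes changed at least 2-fold on the way and were back within 2-fold at day 5. Of these, 419 had risen (3.99%) and 113 had fallen (1.08%), with 1 gene counted in both. The passing rises peaked at day 1 in 230 genes, at day 3 in 178, and at 10°C in 11. The passing falls were lowest at day 3 in 85 of the 113. *ech-9*, of the enoyl-CoA hydratase class, rose from 0.278 to 6.62 at 10°C, was at 5.55 at day 1, and returned to 0.303 and 0.312. It had the largest passing rise among genes with a peak FPKM of at least 5, and its total was 0.13 [-0.43 to 0.69].

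*bre-1*, which encodes a GDP-mannose dehydratase needed for fucose-containing glycolipids, stood at 6.49, 17, 96.4, 12.8, and 8.01 in the 5 conditions. *ipla-2*, of the calcium-independent phospholipase A2 class, stood at 5.96, 14.9, 84.5, 15.1, and 11.8. Both were already above 2-fold at 10°C and peaked at day 1, and *ipla-2* was still above 2-fold at day 3. C44H9.4 (15.5 at day 1), C38H2.2 (40.7), and C06B3.6 (70.5) also peaked at day 1 and ended within 2-fold of 20°C. Among the passing falls, the linker histone-like gene *hil-7* went from 12.58 to 3.62 at day 1 and back to 6.60, K04G2.10 from 29.4 to 10.6 at day 3 and back to 14.8, and *skr-14*, related to the Skp1 adaptor, from 16.5 to 6.22 and back to 9.17. *nspe-1* went from 4.54 to 1.38 at 10°C, stood above its starting level at day 3 (6.67), and ended at 2.36, and M116.1 and *sdz-25*, which shared their reads, from 5.76 to 2.04 at day 3 and ended at 2.96. These 6 ended just inside the 2-fold limit, at -0.84 to -0.99.

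Most sensor and chaperone genes of the unfolded protein response, which senses misfolded protein in the endoplasmic reticulum (ER), were kept at day 5. Kept were 12 of 18 genes of sensors and ER-associated degradation, and 8 of 15 of ER chaperones and disulfide isomerases. The chaperone gene *hsp-4*, a marker of this response, was at 162, 180, 281, 145, and 157 (-0.04 [-0.08 to -0.01]), and *cbp-3* was at 7.28, 13.1, 29.3, 9.23, and 7.58 (0.06). Both were highest at day 1 and back at their starting level by day 5. Of 15 genes of ER chaperones and disulfide isomerases, 0 were raised and 0 lowered, with a median of 0.12. Their median step to day 1 was 0.30. The transcription factor gene *xbp-1* ended at -0.14, *atf-6* at -0.12, the kinase genes *ire-1* at -0.64 and *pek-1* at 0.38, and *dnj-27* at 0.25. Not all target genes of the response were kept. Of those that the study examined as targets of *ire-1*, *lips-11* (7.71) and *srp-7* (1.84) were raised, C36B7.6 ended within 2-fold (0.71), and *dnj-27* was kept. The lowered member of the sensor and ER-associated degradation list (18 genes) was *atf-4*, which went from 13.8 through 10.3, 2.81, and 3.33 to 2.69 (-2.32). The 45 genes of the secretory pathway and vesicle coats had 0 raised and 0 lowered members.

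Cytosolic small heat shock genes were the list with the highest median, at 2.00 over 13 genes against -0.11 over all genes, with 8 raised and 1 lowered. These chaperones bind unfolding proteins without ATP. *hsp-12.6* went from 0.474 through 0.404, 3.27, and 17.6 to 29.6 (5.69), the furthest of the list and still increasing at day 5. The neighboring *hsp-16.1* and *hsp-16.11* reached 24.7 from 2.27 and 22.7 from 2.11, and *hsp-17* was at 15.4, 16, 64.3, 276, and 123. *hsp-12.3* was raised by 2.00 and *hsp-16.2* by 1.81, while *hsp-12.1* was lost (-2.37). Among the 8 raised, *hsp-16.48* and *hsp-16.49* are counted separately although they shared their reads. The median step was 1.05 to day 1, 1.39 to day 3, and -0.60 to day 5.

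The 2 raised of 19 cytosolic chaperone genes were F44E5.4 and F44E5.5, near-identical genes of the Hsp70 class on chromosome II. Their FPKM was 0.774 and 0.776 at 20°C and 42.5 and 42.6 at day 5 (5.61 for each), and reads of such close copies may not be told apart. The heat shock factor gene *hsf-1* was kept (33.7 at 20°C and 32.0 at day 5). So were the mitochondrial chaperone genes *hsp-6* (133 and 153) and *hsp-60* (213 and 217), and 0 of 9 genes of mitochondrial chaperones and proteases were called.

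Other stress lists were raised in part and not as a whole. Of 12 metal-responsive genes, 4 were raised (33.3%, against 5.4% of all genes). These include *numr-1* and *numr-2*, which are counted separately although their reads were identical, so the share is set too high. The metallothionein gene *mtl-1* went from 3.91 through 2.40, 18.5, and 90.6 to 45.3 (3.5), whereas the second metallothionein, *mtl-2*, ended at -0.68. *hizr-1*, a zinc-sensing nuclear receptor gene, was lowered (-2.1). Among 33 glutathione S-transferase and related genes, 8 were raised and 10 lowered (24.2% and 30.3%, against 5.4% and 16.7% of all genes). *gst-24* led the rises, with 1.11, 1.47, 47.4, 94.5, and 49.4 (5.36), and *gst-28* ended at -3.12. The superoxide dismutase gene *sod-5* was raised from 0.0713, which rests on 4 reads, to 0.941 (2.60), and *gpx-5* of the glutathione peroxidases was lowered (-3.51). The ferritin gene *ftn-1* was raised from 0.353 to 1.66 (1.955), and the other 7 genes of iron storage and uptake were within 2-fold.

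Of 29 autophagy genes, *sqst-1*, the p62-like receptor for ubiquitinated cargo, was the only member called. It went from 8.14 through 12.7, 81.6, and 108 to 71.8 (3.12). The flavin-containing monooxygenase gene *fmo-2* was gained, from 0.114 through 0.439, 7.42, and 20.0 to 6.78 (5.01). It was named after its value was seen. The serpin gene *srp-7* was raised from 74.1 to 265 (1.84) and *srp-2* lowered (-2.2). The trehalase gene *tre-5* was raised (3.15), while *tre-2* and *tre-4* were lowered (-1.48 and -1.41).

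Among transcription factors, 3 of 22 bZIP genes were raised and 5 lowered (13.6% and 22.7%, against 5.4% and 16.7% of all genes). *zip-10*, known for a role in cold responses of worms, went from 0.358 through 2.26, 15.5, and 14.5 to 10.9 (4.58), and *cebp-1* from 2.19 through 4.49, 14.1, and 11.1 to 10.1 (2.16). The AP-1 gene *jun-1* was raised by 1.45, and *zip-3* had the largest fall (-2.59). Of 101 nuclear hormone receptors, 7 were raised and 24 lowered (6.93% and 23.8%, against 5.4% and 16.7% over all genes), with *nhr-61* at the top (2.46) and *nhr-68* at the bottom (-3.88). In the insulin chain of 14 genes, *akt-2* was raised (1.72) and *sgk-1* lowered (-1.08), and *daf-16* was kept (25.4 at 20°C and 29.1 at day 5).

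**Figure D3:**
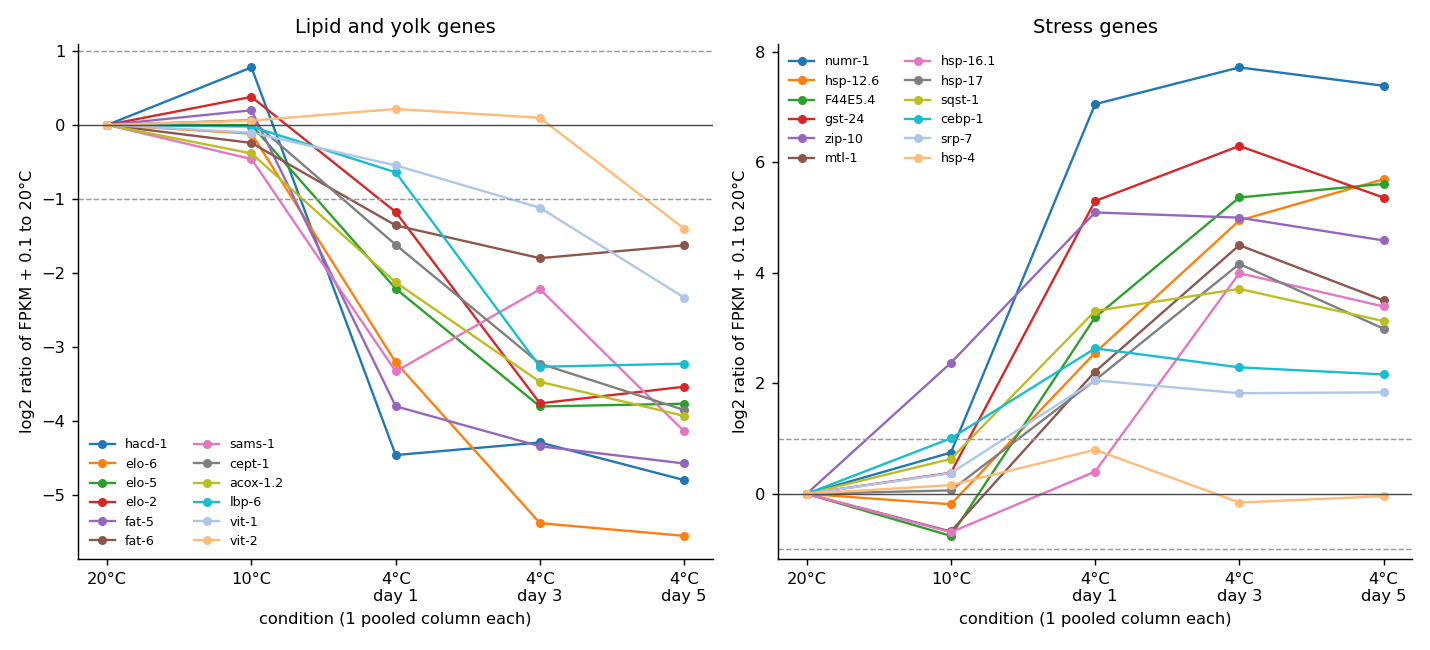
Log2 ratio of FPKM + 0.1 in each condition to that at 20°C for 12 lipid and yolk genes (left) and 12 stress genes (right), 1 pooled column per condition, with dashed lines at 2-fold. At day 5, *elo-6* stands at -5.55 and *hacd-1* at -4.79, while *numr-1* stands at 7.38 and *hsp-4* is back at -0.04. *vit-2* leaves the zone within 2-fold only in the last step.

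In fat metabolism, the genes called were almost all lowered. Of 51 genes of peroxisomal and mitochondrial fatty acid breakdown, 25 were lowered and 0 raised (median -0.90). The largest step median was that from day 1 to day 3, at -0.64. The acyl-CoA oxidase genes of chromosome I, which start peroxisomal beta-oxidation, were lowered together, with log2 totals of -2.68 for *acox-1.1*, -3.93 for *acox-1.2*, -4.06 for *acox-1.3*, and -4.08 for *acox-1.4*. *daf-22*, the thiolase gene for the last step of that pathway, went from 19.4 to 5.90 (-1.70), and the acyl-CoA synthetase gene *acs-2* from 5.58 to 0.299 (-3.83).

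Of 15 genes of fatty acid elongation and synthesis, 7 were lowered and 0 raised (median -0.67). Besides *elo-6*, its close relative *elo-5* went from 137 to 9.97 (-3.76) and the palmitate elongase gene *elo-2* from 68.2 to 5.79 (-3.53). The genes of the first committed enzymes, *pod-2* for acetyl-CoA carboxylase and *fasn-1* for fatty acid synthase, ended at -1.39 and -1.02. *elo-1*, which elongates polyunsaturated fatty acids, ended within 2-fold (-0.48).

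Desaturases divided. *fat-5* was lost, and *fat-6*, a stearoyl-CoA desaturase gene, was lowered from 77.5 to 25.1 (-1.63). The other 5 were kept, with *fat-7* at 17.8 and 16 and *fat-1* at 86.1 and 86.6. *fat-2* was at 110 and 90.03, *fat-3* at 38.9 and 37.7, and *fat-4* at 108 and 118.

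In phosphatidylcholine synthesis, 5 of 18 genes were lowered (27.8%, against 16.7% of all genes) and 0 raised (median -0.41). The S-adenosylmethionine synthetase gene *sams-1* went from 31.5 through 22.8, 3.05, and 6.69 to 1.70 (-4.14), with a partial return at day 3. *cept-1*, of the choline and ethanolamine phosphotransferases, went from 8.39 to 0.489 (-3.85). The methyltransferase gene *pmt-1* was kept (-0.13), and *pmt-2* was just past the limit (-1.02). Of 11 regulators of membrane fluidity and fat synthesis, 7 were kept, 0 raised, and 2 lowered (18.2%, near the 16.7% of all genes). *sbp-1*, the SREBP transcription factor that drives lipid synthesis, was lowered (-1.17), as was *nhr-80* (-1.44), a receptor that acts on desaturase genes.

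Of 13 lipase genes, 3 were raised (23.1%, against 5.4% of all genes), all from the *lips-11* cluster. Another 4 were lowered (30.8%, against 16.7%), with *lipl-1* (-2.72) and *lipl-2* (-2.70) furthest. The triglyceride lipase *atgl-1* was kept (20.8 at 20°C and 22.6 at day 5). Of 8 lipid-binding protein genes, *lbp-5*, *lbp-6*, and *lbp-7* were lowered (37.5%, against 16.7% of all genes). *lbp-6* went from 97.8 through 96.3, 62.7, and 10.1 to 10.4 (-3.22).

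Yolk mRNAs were lowered late. All 6 vitellogenin genes, which encode the yolk lipoproteins made by the intestine, were lowered, and the median of the 10 genes in the yolk list was -1.52. The median of their changes in the last step alone was -1.02. *vit-2* was at 818, 852, 949, and 875 up to day 3 and at 310 at day 5 (-1.40). *vit-6* was at 1887, 1947, 2294, 1956, and 805 (-1.23), and *vit-1* at 442, 412, 303, 204, and 87.9 (-2.33). *vit-3*, *vit-4*, and *vit-5*, which are similar in sequence, ended at -1.73, -1.69, and -1.64. The regulator gene *ceh-60* was lost (-2.44), and the oocyte yolk receptor gene *rme-2* ended within 2-fold (-0.70). The lowered intestinal markers moved with these and the fat metabolism lists, with *vha-6*, a subunit of the apical proton pump, going from 23.6 to 5.46 (-2.09), and their part in the result was not tested.

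Of the detoxification genes, the cytochrome P450 and UDP-glucuronosyltransferase lists, also mainly intestinal, were lowered over all the days. The glutathione S-transferases, given above, were called in both directions. Of 35 cytochrome P450 genes, 19 were lowered and 0 raised (median -1.36), with *cyp-34A8* furthest (-4.37). Of 36 UDP-glucuronosyltransferases, 24 were lowered and 2 raised (median -1.34). Digestive and surface proteins did likewise. Of 29 aspartic and cysteine proteases, 12 were lowered and 2 raised (median -0.91), from *asp-13* (-4.42) to *asp-17* (3.60). Of 56 C-type lectins past the filter, 29 were lowered and 4 raised, with *clec-1* going from 39.1 to 1.54 (-4.58). Their median was -1.02, but without the filter it was -0.11, close to the -0.08 of all genes without it.

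Of 53 lysozymes and other antimicrobial effectors, 21 were lowered and 6 raised (39.6% and 11.3%, against 16.7% and 5.4% of all genes). Their median was -0.70, and -0.26 without the filter. The raised members were *cnc-11* (3.32), *lys-3* (2.57), *abf-2*, *nlp-31*, *nlp-27*, and *irg-2*. In the fipr family, 7 of 16 were lowered (43.75%), 5 of them in a cluster on chromosome V. Another 3 were raised (18.75%), with *fipr-24* gained at 6.05 from 2 reads at 20°C (5.27 [4.26 to 5.77]). The fbxa F-box list of 59 genes had 10 raised and 10 lowered (16.9% each, against 5.4% raised and 16.7% lowered over all genes). Of 46 transthyretin-like genes, 6 were raised and 10 lowered (21.7% lowered, against 16.7% over all genes). Of 26 pals and skr genes, 3 were raised and 9 lowered (34.6% lowered), and of 33 MATH and BATH domain genes 0 and 6 (18.2% lowered, near the share over all genes).

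Of 85 collagens past the filter, 53 were lowered and 0 raised (median -1.62, and -0.71 without the filter), and the medians of the 3 steps at 4°C were -0.56, -0.42, and -0.46. The fall was thus drawn out. The sum of their FPKM was 8620 at 20°C, 8505 at day 1, and 4800 at day 5, of which *col-119* and *col-140* held 1328 and 497. The summed FPKM of 4 epidermal markers was 14.9 at 20°C and 9.24 at day 5, with 1 of the 3 past the filter lowered, and its part in the result was not tested. In muscle, 6 of 32 sarcomere genes were lowered (18.75%, near the 16.7% over all genes), including the myosin heavy chain gene *unc-54*, which was at 78.7, 76.8, 76.5, and 67.0 up to day 3 and at 34.4 at day 5 (-1.19). Of 12 tubulins, 3 were lowered (25%, against 16.7% of all genes), with *tba-4* at -2.05 and *mec-12* at -1.99. The actin gene *act-1* was kept (-0.19).

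Genes of the protein synthesis machinery took a larger share of the mRNA at day 5. All 80 cytosolic ribosomal protein genes had totals above 0, with a median of 0.69, although only 5 passed 2-fold. Their summed FPKM was 55810, 50812, 58656, 66921, and 92425, so most of the increase came in the last step. The 5 were *rpl-24.2* (1.13), *rps-21* (1.07), *rpl-27* (1.04), *rpl-38* (1.02), and *rps-8* (1.01). Translation factors (39 genes, median 0.40) and proteasome subunits (33 genes, median 0.37) had 0 calls. The mitochondrial ribosomal proteins (71 genes), aminoacyl-tRNA synthetases (31), nuclear respiratory chain genes (51), and mitochondrial respiratory genes (10) also had 0 raised and 0 lowered.

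Histone mRNAs also took a larger share. Of 78 histone genes, 17 were raised and 2 lowered (21.8% and 2.56%, against 5.4% and 16.7% of all genes). Their median was 0.72, and many are near-identical copies that share reads. *his-69* went from 5.34 to 14.8 (1.45), *hil-1* had the largest rise (2.67), and the linker histone gene *his-24* was lowered from 21.9 to 4.84 (-2.16). FPKM values are shares of a column's reads, so a rise of these mRNAs and a fall of others cannot be told apart.

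The mRNAs of the germ line mostly ended within 2-fold. Of 28 meiosis genes, 0 were called, nor were any of the 56 major sperm protein and sperm genes (median 0.07) or the 16 eggshell and oocyte genes (median -0.39). Of 27 RNA-binding regulators of oocyte mRNAs, *puf-11* was lowered (-1.12). Of 28 germ granule and small RNA genes, *znfx-1* and *alg-1* were lowered (-1.11 for each), and of 29 replication and cell cycle genes, *klp-15* (-1.15). The Notch receptor gene *glp-1* was the exception among the germ line markers, with 63.4, 67.1, 33.2, 27.3, and 25.4 (-1.32).

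Of 91 neuropeptides and insulin-like peptides, 17 were raised (18.7%, against 5.4% of all genes) and 6 lowered, with a median of 0.66. *ins-10* (2.15), *nlp-48* (2.01), and *ins-3* (1.97) led the rises, and *nlp-33*, an epidermal antimicrobial peptide gene, had the largest fall (14.9 at 20°C and 1.27 at day 5, -3.45). Of 18 genes of synaptic function, 0 were raised and *unc-25*, the GABA synthesis enzyme, was lowered (-2.03). The summed FPKM of the neuronal markers was higher at day 5, as given above, and its part in the result was not tested.

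**Figure D4:**
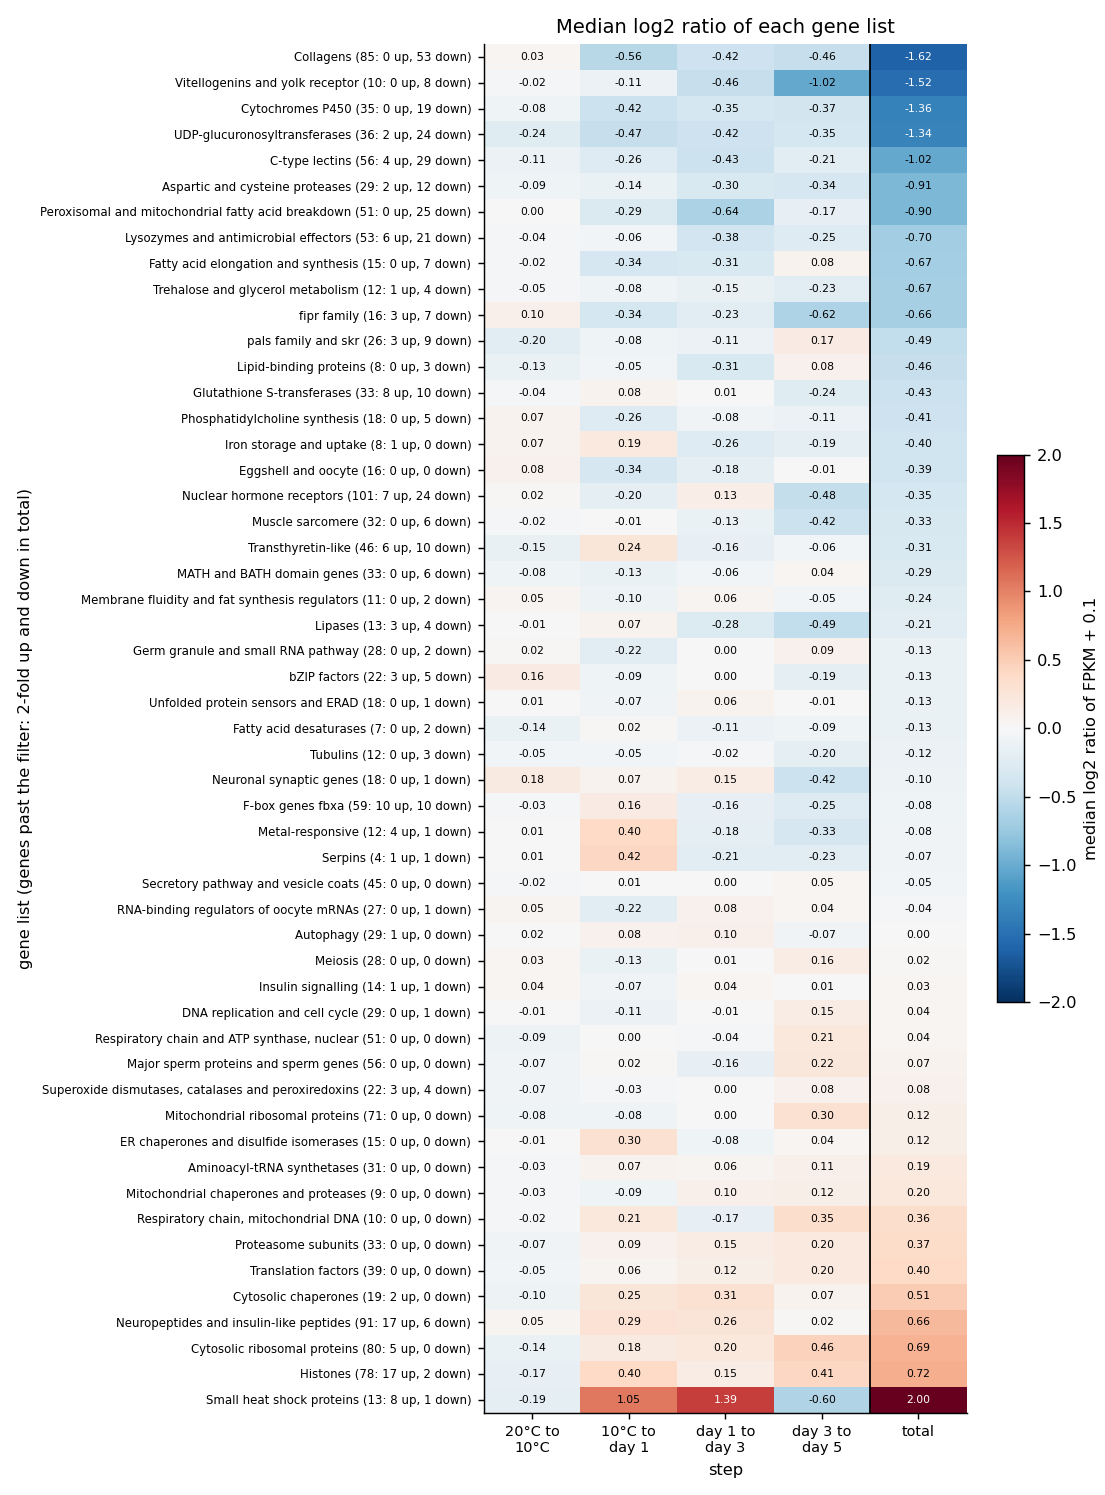
Median log2 ratio of FPKM + 0.1 for each of 53 gene lists in the 4 steps and in total, ordered by the total, with the genes past the filter and the number raised and lowered at 2-fold beside each name. Collagens stand at -1.62 and vitellogenins at -1.52 at the top, and small heat shock proteins at 2.00 at the bottom. The lists were not tested against each other.

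The share of genes called varied with level, length, and position. When genes were divided into 5 equal groups by mean FPKM, 9.61% of the lowest group were raised and 41.0% lowered, and 2.76% and 3.00% of the highest. In 5 such groups by exon length, 10.4% of the shortest were raised and 2.14% of the longest. Across the 10509 genes, the total change had a Spearman correlation of 0.327 with mean FPKM and -0.134 with exon length. Genes are not independent replicates, all points share their libraries and depth, and the mean FPKM includes the day 5 value itself. A gene of low mean passed the filter mainly through the condition in which it was high, so the shares in the lowest group are a description of the filter as well, and nothing is read from them. In the step from day 3 to day 5 these values were 0.402 and -0.253. Raised genes more often had only a sequence name (57.4%, against 39.9% of all genes) and at most 2 exons (30.5%, against 14.5%).

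By chromosome, the X chromosome had 25.5% of its genes lowered and chromosome V 23.2%, while the figure was 10.4% for chromosome I and 10.7% for chromosome III. Chromosome V also had the most raised genes, with 9.53%, and chromosome I the fewest among the nuclear chromosomes, with 2.56%. None of 12 mitochondrial genes was called.

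**Figure D5:**
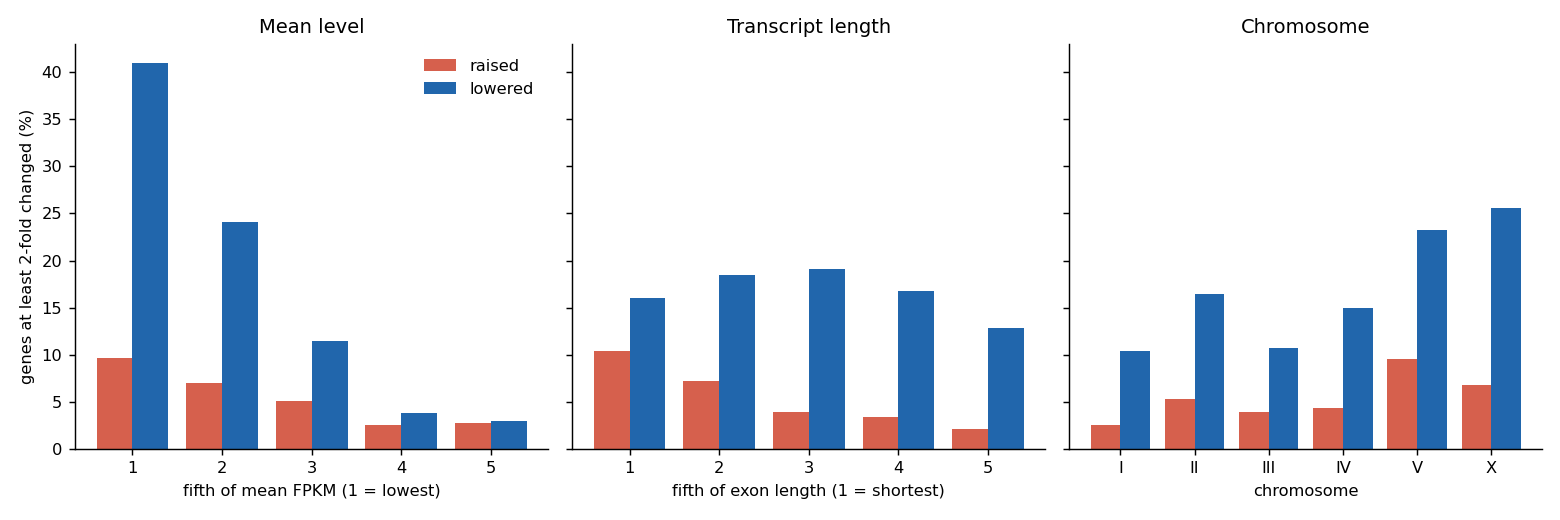
Percentage of genes raised or lowered at least 2-fold in 5 equal groups by mean FPKM (left), 5 by exon length (middle), and by nuclear chromosome (right). Lowered genes fall from 41.0% to 3.00% from the lowest to the highest level, raised genes from 10.4% to 2.14% from the shortest to the longest, and chromosomes V and X stand highest.

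Neighboring genes often shared a call. An adjacent raised gene was found for 183 of the 568 raised genes (32.2%), against 10.2% of all genes, and an adjacent lowered gene for 867 lowered genes (49.5%), against 29.5%. On the X chromosome, *kreg-1*, F53A9.1, F53A9.6, F53A9.7, and F53A9.8 lie in a run from 8709764 to 8718904 and were all raised, by 3.09 to 4.66. *kreg-1* went from 0.849 through 3.22, 42.8, and 30.005 to 19.3 (4.35), F53A9.1 from 3.82 to 55.3, and F53A9.6 from 6.02 to 52.1. The 4 *hsp-16* genes from 9087293 to 9090604 on chromosome V, 3 glutathione S-transferases (*gst-14*, *gst-12*, and *gst-16*) on chromosome II, and a run from K09D9.1 to *irg-2* on chromosome V were raised as well. Runs of lowered genes included the pud genes, *acox-1.1* to *acox-1.4*, and 3 cytochrome P450 genes, *cyp-25A1* to *cyp-25A3*.

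At the 2-fold limit, R02F2.1 (57.1 at 20°C and 114.6 at day 5) and C54D2.2 (0.669 and 1.44) lay just inside the raised genes, and C13E3.1 (0.638 and 1.38) just outside. Of the lowered genes, *set-15* (5.21 and 2.55) lay just inside, and *vglu-2* (3.46 and 1.68) and F44F1.6 (1.74 and 0.82) just outside. Of the other genes the study names, R02D3.8 ended at 0.13 and *cht-1* at -0.69, and ZC168.2 did not reach the filter.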

How the data were processed

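Total RNA of whole animals was sequenced from 10 samples, 2 for each of 5 conditions. The authors deposited FPKM values per transcript in 1 column per condition, and how the replicates were pooled is not given in the sources used here. A further value column matched no sample and was not used. Per the submitters' processing notes, reads were processed with fastp 0.23.4, STAR 2.7.11b, and DESeq2 1.42.1 on WBcel235. Whether strand was used in counting is not given in the sources used here, and a read counted for every transcript it overlapped. Of 31865 transcripts, 1 per gene was kept (highest mean), with a filter of FPKM 1 in any condition and a pseudocount of 0.1. Reads were recovered as FPKM times exon length, from the Ensembl annotation of the same build (all values whole within 0.01). Limits are 95% Wilson limits of the reads, combined for the log2 ratio by the MOVER method. With 1 column per condition there was no test, and a 2-fold change is a size, not a significance. The recovery of reads, steps, and classes was checked on simulated data.

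The text names the 12 largest rises and falls with FPKM 5 and 100 reads at the higher end, the 10 kept genes of highest mean, and the 4 largest changes of each step and direction among genes with at least 50% of their total in it. It also names the 6 largest passing rises and falls, the 4 largest totals each way that moved alike in every step, the extremes and members of known role of each list, and genes the study names. Genes named beyond these were chosen after their values were seen. The members and the 53 lists were chosen with earlier results of these data known. Alternatives were the pseudocount, the filter, the scaling, the threshold, the choice of transcript, and the end point. Python 3.11.15 was used with matplotlib 3.10.9, scipy 1.17.1, pandas 2.3.3, and numpy 2.4.6.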

Additional observations from a re-analysis of the deposited data

How the results depend on the processing

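The counts depended on the pseudocount, the filter, and the threshold, and the order of raised to lowered genes held in every setting. With a pseudocount of 1, 360 genes were raised, 1074 lowered, 157 gained, and 508 lost, and 245 raised genes had the step to 4°C day 1 as their main step (398 before). Without a filter, 2696 were lowered, 9077 kept, 885 passing, and 1211 lowered mainly in that step (746 before). At an FPKM of at least 5, 322 were raised, 717 lowered, 81 gained, 113 lost, and 247 passing, with 242 raised and 267 lowered mainly in that step. At 1.5-fold, 1141 were raised, 2738 lowered, and 897 passing, with 642 and 1195 in that step. At 4-fold, 235 were raised, 746 lowered, 142 gained, 524 lost, and 244 passing, with 175 and 378 in that step.

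With the medians of 10 groups of mean FPKM subtracted, 904 genes were raised and 1203 lowered, and 543 and 1177 of these were also called without it. With day 3 as the end point, 784 were raised, 1297 lowered, and 243 passing, and *gst-13* was raised (1.61) where it was lowered at day 5. It was the only reversal among 92 genes checked, where only raised or lowered genes could be marked as reversed. Genes named only as members of a list were not checked in this way. Over all settings, 942 values of the 92 genes lay within the counting limits of the reported value, and 252 had moved outside them. Centering on the median or scaling by size factors gave 662 and 667 raised and 1594 and 1587 lowered. The median of 26 lists changed sign in at least 1 setting, and those medians carry no direction.

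No paired analysis was possible because each condition had 1 column without a replicate number. For the same reason leaving out each replicate could not be run. Depth limits genes with few reads: the median raised gene had 59 reads at 20°C, and the median lowered gene 59 at day 5.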

Other observations

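Gene families outside the lists, grouped by the class part of their names after their values were seen, are given against the 16.7% of all genes lowered and 5.4% raised, as a description. Of 32 fbxb genes, another F-box family, 29 were lowered (90.6%) and 0 raised, with a median of -1.83. The related fbxa list had 16.9% lowered and 16.9% raised. Of 20 sdz genes, 15 were lowered and 2 raised (median -1.66), and of 17 cest carboxylesterase genes, 11 and 0 (median -1.36). Of 16 acs acyl-CoA synthetase genes, 9 were lowered and 2 raised, with *acs-5* furthest, from an FPKM of 23.6 to 0.814 (-4.70). Of 8 aquaporins, 5 were lowered (62.5%), and of 12 bestrophin-like best genes, 6 (50%).

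Other families had a larger share of kept genes than the 43.2% over all genes. Kept genes had higher levels than the others, as given above, and the part of level in these shares was not tested. Of 24 npp nuclear pore genes, 20 were kept and 0 called, and of 20 mdt genes of the Mediator complex, 16 were kept and 0 called. The 30 vps genes of vesicle sorting included 18 kept and 0 called, and the 29 dnj cochaperone genes 22 kept and 1 lowered.

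Of 3639 genes with at least 2 transcripts past the filter and with 100 reads at the higher end, 0 had transcripts that changed 2-fold in opposite directions. A read counted for every transcript it overlapped, so transcripts of a gene share most of their reads.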
